A study of Mus musculus with 10 samples.

Results

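Cytochromes P450 of families 2 to 4 are the enzymes that oxidise most drugs, dietary chemicals and many lipids. The genes were taken by symbol: every gene named Cyp, then 2, 3 or 4, a single subfamily letter and a number, which gave 69 of the 19505 named genes on the array. Where a gene had several probe sets, the one chosen by the highest mean over all arrays was to be used, but each of the 69 genes had 1 probe set, so no measured value decided which rows were read. The series holds 10 single-colour arrays. Their RNA came from organoids of BALB/c mouse small intestine, that is, cultures of intestinal epithelium grown in domes of basement membrane matrix. All cultures received 20 ng/ml recombinant murine TNF for 48 h. In 5 of them TNF was given with 2.625 mM PEG as vehicle, and in 5 with 5 mg/ml pegtarazimod, a peptide linked to PEG that is known as an inhibitor of complement and of myeloperoxidase. No culture without TNF and no untreated culture was analysed here, so each difference is between pegtarazimod and vehicle under TNF.

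P450 enzymes of these families sit in the endoplasmic reticulum, hold a haem group and draw electrons from a reductase and from cytochrome b5. Family 3 and the Cyp2b and Cyp2c subfamilies are known as targets of the nuclear receptors PXR (Nr1i2) and CAR (Nr1i3), and the Cyp4a genes as targets of PPAR alpha (Ppara). Many Cyp2c and Cyp2j enzymes also turn arachidonic acid into epoxides and hydroxy acids, and Cyp4 enzymes add a hydroxyl group at the end of fatty acids and eicosanoids. In the small intestine these genes are known from enterocytes, where they meet absorbed compounds before the liver does.

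Of the 69 P450 genes, 23 were higher with pegtarazimod and none was lower, by limma with Benjamini-Hochberg adjustment over all 19505 genes at a threshold of 0.05. Of all genes, 2.5% were called higher and 2.39% lower, against 33.3% and 0 of the P450 genes. No P450 gene had an unadjusted p below 0.05 in the lower direction either, and 37 had one in the higher direction. Of all 19505 genes, 1882 had one in the lower and 1816 in the higher direction. In 20 genes every pegtarazimod array exceeded every vehicle array, and in none was the reverse seen, where 3.35% of all genes lay apart upwards and 3.36% downwards. The median difference, pegtarazimod minus vehicle, was 0.34 on the log2 scale, against 0.00 over all genes, with a range from -0.16 to 1.97, and 59 of 69 differences were above 0 (85.5%, against 50.7% of all genes). Of the 23 genes, 11 were at least 2-fold higher. The probes of close relatives may share signal, so the genes in these counts may not be separate measurements. In bulk RNA more cells of a type and more P450 RNA per cell cannot be told apart.

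**Figure D1:**
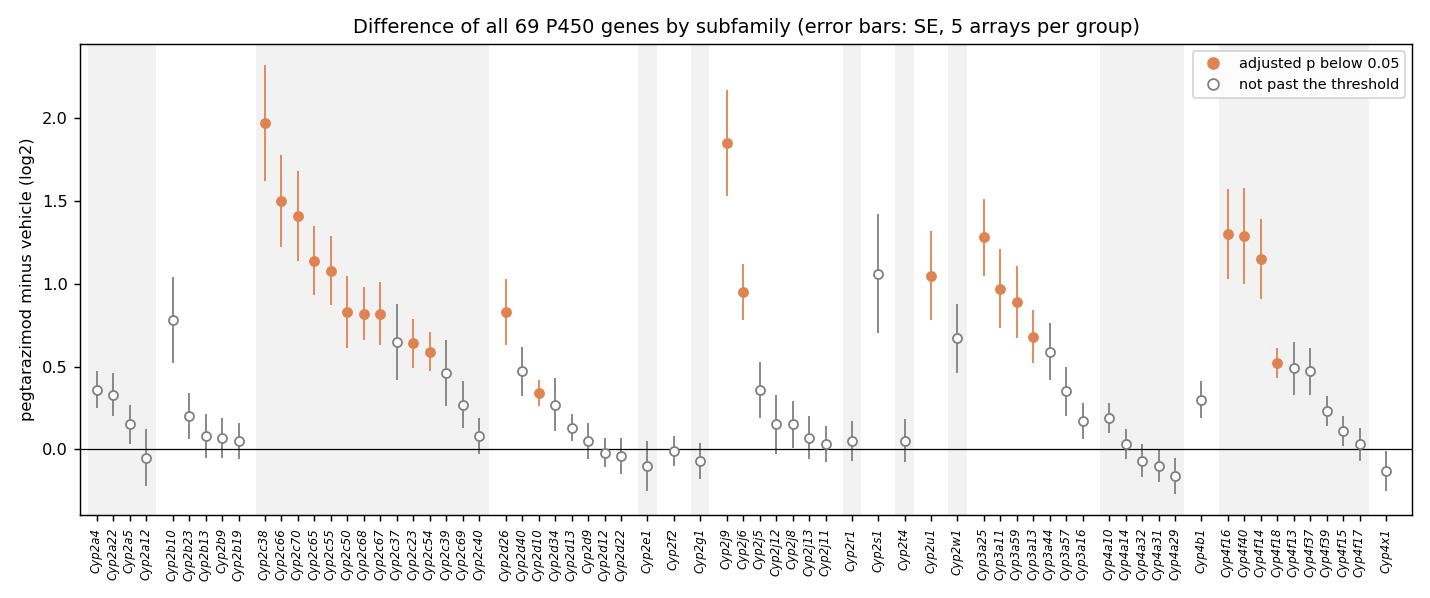
Difference (pegtarazimod minus vehicle, log2) of each of the 69 P450 genes on the vertical axis, grouped by subfamily along the horizontal axis and ordered by size within it; bars are standard errors from limma with 5 arrays per group. Filled points, 23 in all, have an adjusted p below 0.05 and all lie above 0, with the largest in Cyp2c38 (1.97) and Cyp2j9 (1.85), while the Cyp2a, Cyp2b and Cyp4a subfamilies hold none.

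The summed linear signal of the 69 genes was 10907, 9163, 6017, 7892 and 8389 on vehicle arrays 1 to 5 and 23174, 20354, 12981, 13201 and 13044 on pegtarazimod arrays 1 to 5. The groups thus did not overlap in this sum, and pegtarazimod arrays 1 and 2 were the highest. Leaving out 1 array changed the count of 23 most for vehicle 3 (13 genes), pegtarazimod 2 (13) and pegtarazimod 1 (14). What separated the 5 biological replicates of a group is not stated, so p-values measure the spread between these arrays.

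No call lay among the genes with the dimmest probe sets. None of the 23 P450 genes whose mean over all arrays was below the lower quartile of array values was called, 7 of 19 between lower quartile and median, and 16 of 27 above the median. Over all genes the shares called higher in the same ranges were 0.268%, 0.904% and 4.40%. The mean includes the pegtarazimod arrays, so a rise itself moves a gene towards the brighter ranges, as it did for Cyp2j9, Cyp3a13 and Cyp2c67. By the vehicle mean alone, a choice made after seeing the data, the counts were 0 of 22, 10 of 23 and 13 of 24, against 0.309%, 1.26% and 4.20% of all genes. Detection calls were not used, so a low value here cannot be told from background.

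**Figure D2:**
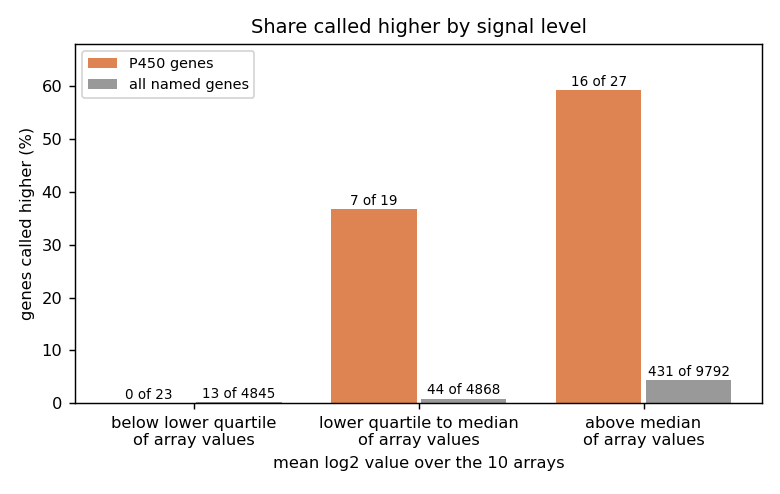
Share of genes called higher with pegtarazimod (percent, limma adjusted p below 0.05) for the P450 genes and for all named genes, in 3 ranges of the mean log2 value over the 10 arrays; the numbers above the bars are genes called of genes in that range. The P450 genes run from 0 of 23 in the dimmest range to 16 of 27 above the median, where all genes reach 431 of 9792.

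Promoter sequences are shown for the genes that hold a match to the core bound by HNF4 factors, nuclear receptors known to drive enterocyte and hepatocyte genes, because of the motifs searched, which were chosen with the calls known, this one was in far more of these promoters than of all promoters. The windows came from RefSeq (GRCm38.p6), run from 250 bases before to 50 after a start site, and were found for 20 of the 23 genes called and 36 of the other 46. The motif searched was CAAAGTNCA on both strands, which neither contains another motif searched nor lies within one. It was present in the windows of 7 of the 20 genes called (35%), of 5 of the 36 genes not called (13.9%) and of 444 of 27025 genes in all (1.64%). The windows, with the match in capitals and 10 bases on each side, read 5′ to 3′ as follows, the first 7 from genes called higher and the last 5 from genes not called.
Cyp2c50: aagaatgttcCAAAGTGCAatggattgat
Cyp2c65: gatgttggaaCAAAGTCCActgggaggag
Cyp2c67: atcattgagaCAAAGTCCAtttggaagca
Cyp2c68: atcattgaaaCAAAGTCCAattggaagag
Cyp2c70: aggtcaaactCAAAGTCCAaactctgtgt
Cyp2d26: aggcagagaaCAAAGTGCAgccttcccct
Cyp3a11: aagagagtacCAAAGTCCAgtgatgcaaa
Cyp2c37: aagaatattcCAAAGTGCAatcaattgat
Cyp2c40: atcattgagaCAAAGTCCAtttggaagag
Cyp2c69: atcattgagaCAAAGTCCAtttggaagag
Cyp3a16: aagagacgacCAAAGTCCAggtgatgcag
Cyp3a44: aagatacgacCAAAGTACAggtgatgcag

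All 12 matches lay on the promoter strand, between 45 bases (Cyp2c40) and 125 bases (Cyp2c67) before the start, and 8 of the 12 Cyp2c genes with a window held one. The windows of relatives are copies of each other in part, so the matches are not independent. The window of Cyp2c68, which was called, and that of Cyp2c69, which was not, were 91.1% identical over their alignment. That of Cyp2c50 (called) was 86.6% identical to Cyp2c37 (not called), and that of Cyp3a11 (called) 75.2% to Cyp3a16 (not called). The match therefore stood in called and uncalled genes of the same pairs. In the Cyp2c subfamily the windows of Cyp2c38, Cyp2c55 and Cyp2c66 (called) and of Cyp2c39 (not called) held no match. In the Cyp3a subfamily those of Cyp3a13, Cyp3a25 and Cyp3a59 (called) and of Cyp3a57 (not called) held none. Within neither subfamily was the match more common in called than in uncalled genes. The other motifs were searched on both strands too, and the shares are of promoters, of which the called genes had 25 and the others 38. CAAAGTNCA itself was in 28.0% and 13.2% of these and in 1.41% of all 32851 promoters. TATAAA, the TATA box, was in 36.0% of promoters of called genes, 36.8% of those not called and 13.6% of all, and AGGTCA, the core bound by many nuclear receptors, in 20.0%, 36.8% and 16.3%. GTTAATNAT, of the HNF1 type, was in 4%, 2.63% and 0.801%, and TTTATGG, of the CDX type, in 0, 5.26% and 2.75%. A match describes the letters and is not a measured binding site.

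The whole windows of Cyp2c65 and Cyp3a11 are given as examples of called genes with a match. They do not stand for their subfamilies, in which other called genes had a window without a match. They lie at chr19:39060756-39061055 on the plus strand and at chr5:145879805-145880104 on the minus strand (GRCm38.p6), with the match to CAAAGTNCA in capitals 116 and 109 bases before the start.
Cyp2c65: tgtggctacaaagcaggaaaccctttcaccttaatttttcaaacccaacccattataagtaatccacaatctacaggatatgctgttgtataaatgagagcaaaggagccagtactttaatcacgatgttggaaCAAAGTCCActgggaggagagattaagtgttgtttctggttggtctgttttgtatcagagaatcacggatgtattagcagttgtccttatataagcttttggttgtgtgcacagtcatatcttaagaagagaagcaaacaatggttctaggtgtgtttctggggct
Cyp3a11: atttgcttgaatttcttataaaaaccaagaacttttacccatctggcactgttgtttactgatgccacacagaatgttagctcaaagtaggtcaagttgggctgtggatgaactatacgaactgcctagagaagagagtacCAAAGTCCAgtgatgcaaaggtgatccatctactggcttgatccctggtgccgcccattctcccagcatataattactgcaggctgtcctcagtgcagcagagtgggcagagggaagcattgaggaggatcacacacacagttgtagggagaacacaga

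The Cyp2c subfamily, which holds epoxygenases of arachidonic acid, had the most calls. Of its 14 genes 10 rose, 14 had a difference above 0 and the median difference was 0.82. Close relatives in this subfamily may share probe signal, so the 10 calls may not be separate measurements. Cyp2c38 had the largest difference of all 69 genes. Its log2 values were 6.31, 5.91, 5.07, 5.41 and 5.74 in vehicle 1 to 5 and 8.80, 8.48, 6.94, 6.97 and 7.10 in pegtarazimod 1 to 5. The groups did not overlap, and pegtarazimod 1 and 2 lay highest. Its mean rose from 5.69 ± 0.47 to 7.66 ± 0.90 (SD, n = 5 per group), a difference of 1.97 ± 0.35 (SE) or 3.91-fold (limma adjusted p = 0.00636).

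Cyp2c55, Cyp2c65 and Cyp2c66, which are known as P450 genes of the intestinal epithelium, were bright on every array. Cyp2c66 had values of 10.13, 9.87, 8.63, 9.34 and 9.12 with vehicle and of 11.52, 11.42, 10.68, 10.57 and 10.40 with pegtarazimod, a 2.83-fold increase (adjusted p = 0.00737). Within each group replicates 1 and 2 lay above replicates 3 to 5, and no pegtarazimod array reached down to a vehicle array. Cyp2c65 rose 2.21-fold, from 9.34 ± 0.43 to 10.48 ± 0.40 (adjusted p = 0.0078), and Cyp2c55 rose 2.11-fold, from 9.91 ± 0.46 to 10.98 ± 0.33 (adjusted p = 0.00906). These 3 genes are neighbours at one end of the Cyp2c cluster.

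Cyp2c70, known in mouse liver for making muricholic bile acids, had values of 4.85, 4.22, 3.91, 4.14 and 4.23 with vehicle and of 6.54, 6.31, 5.18, 5.05 and 5.31 with pegtarazimod. The groups did not overlap, and the gene was 2.65-fold higher (adjusted p = 0.00942) from a vehicle mean below the array medians. Cyp2c68 rose by 0.82 ± 0.16 (SE; adjusted p = 0.00994), Cyp2c67 by 0.82 ± 0.19 (0.0238) and Cyp2c54 by 0.59 ± 0.12 (0.0135). Cyp2c50 rose by 0.83 ± 0.22 (adjusted p = 0.0445) and Cyp2c23, an epoxygenase gene that lies outside the main cluster, by 0.64 ± 0.15 (0.0266). Neither call of this last pair was firm: that of Cyp2c50 was lost without any 1 of 8 arrays and that of Cyp2c23 without any 1 of 6. The adjusted p of Cyp2c50 reached 0.109 without vehicle 3 and passed 0.05 without any other vehicle array or pegtarazimod 1, 2 or 3, as well as after quantile normalisation or with an intensity trend and robust priors (0.0511 in the latter). That of Cyp2c23 reached 0.0700 without vehicle 3 and also passed 0.05 without vehicle 1, 2 or 5 or pegtarazimod 1 or 2. Cyp2c67 lost its call without vehicle 3 (0.0727), vehicle 4, pegtarazimod 1 or pegtarazimod 2. The Cyp2c genes that did not pass over the 10 arrays without a block were Cyp2c37 (0.65, adjusted p = 0.127), Cyp2c39 (0.46), Cyp2c69 (0.27) and Cyp2c40 (0.08).

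**Figure D3:**
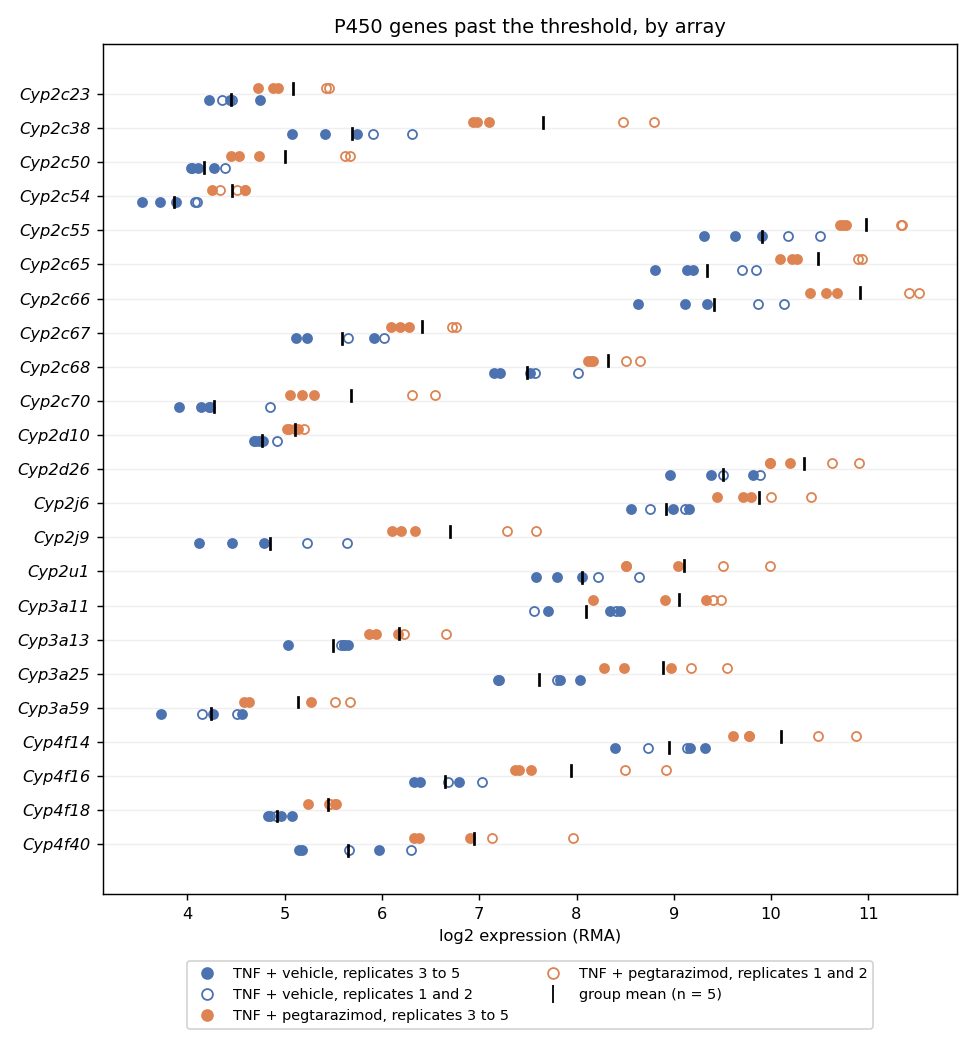
Log2 expression (RMA, horizontal axis) of the 23 P450 genes past the threshold on each of the 10 arrays, vehicle in blue and pegtarazimod in orange; open circles are replicates 1 and 2, filled circles replicates 3 to 5, and black ticks group means. The groups stand apart in 20 genes and overlap in Cyp2c23, Cyp2u1 and Cyp3a11, and in Cyp2c38 the open orange circles at 8.48 and 8.80 lie above all others.

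In the Cyp2j subfamily 2 of 7 genes rose, and the other 5 were dim. Cyp2j9, whose product hydroxylates arachidonic acid, had values of 5.65, 5.23, 4.12, 4.79 and 4.46 with vehicle and of 7.58, 7.29, 6.34, 6.19 and 6.10 with pegtarazimod. The lowest pegtarazimod array exceeded the highest vehicle array, at a 3.61-fold higher mean (adjusted p = 0.00503, the smallest of the 69 genes). Its neighbour Cyp2j6, known as a P450 of the small intestine, had values of 9.12, 8.76, 8.56, 8.995 and 9.15 with vehicle and of 10.41, 9.997, 9.44, 9.71 and 9.80 with pegtarazimod (1.94-fold, adjusted p = 0.00533). Both groups were again separate. Cyp2j5, Cyp2j8, Cyp2j11, Cyp2j12 and Cyp2j13 differed by 0.03 to 0.36 and did not pass.

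Of the 8 Cyp2d genes, relatives of the human drug-oxidising CYP2D6, 2 rose. Cyp2d26 rose 1.78-fold, from 9.51 ± 0.37 to 10.34 ± 0.41 (adjusted p = 0.0301), and Cyp2d10 1.27-fold, from 4.76 ± 0.10 to 5.10 ± 0.07 (0.0327). In both the groups were separate. Neither call was firm: Cyp2d26 reached 0.0825 without vehicle 3 and also missed the threshold without vehicle 2 or 4 or pegtarazimod 1 or 2, and Cyp2d10 reached 0.0876 without pegtarazimod 2 and missed it too without vehicle 2, 3, 4 or 5 or pegtarazimod 1 or 5. An intensity trend with robust priors gave 0.0633 and 0.0577. The Cyp2d13 and Cyp2d9 values, at means above the array medians, differed by 0.13 and 0.05. Cyp2d40, also above the medians, differed by 0.47 and did not pass (adjusted p = 0.105). It passed with a block for replicates 1 and 2 against 3 to 5 (0.0171).

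Family 3 holds Cyp3a11, a major drug-oxidising P450 of mouse liver and gut and a known PXR target. Of its 7 genes 4 rose and all 7 had differences above 0 (median 0.68). Cyp3a25 had values of 7.80, 7.19, 7.20, 7.83 and 8.04 with vehicle and of 9.54, 9.17, 8.28, 8.97 and 8.48 with pegtarazimod, and rose 2.43-fold (adjusted p = 0.00665). Cyp3a11 had values of 8.41, 7.56, 7.71, 8.34 and 8.45 with vehicle and of 9.48, 9.40, 8.17, 9.33 and 8.91 with pegtarazimod (1.95-fold, adjusted p = 0.0375). In Cyp3a11 pegtarazimod 3 lay below 3 vehicle arrays, so the groups overlapped, whereas in Cyp3a25 they did not. Cyp3a13, an intestinal member that lies apart from the cluster, rose 1.60-fold (5.497 ± 0.26 to 6.17 ± 0.31, adjusted p = 0.0247) and Cyp3a59 1.86-fold (4.24 ± 0.34 to 5.14 ± 0.50, adjusted p = 0.0310).

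Pegtarazimod 3 was the lowest pegtarazimod array in Cyp3a11, Cyp3a13, Cyp3a25, Cyp3a44, Cyp3a57 and Cyp3a59. The probes of close relatives may share signal, so these genes may not be separate measurements. Cyp3a25 kept its call without any single array. The call of Cyp3a11 was lost without vehicle 3 (adjusted p = 0.106), vehicle 2 or 4 or pegtarazimod 1, 2, 4 or 5, and with an intensity trend and robust priors (0.0928). That of Cyp3a59 was lost without vehicle 3 (0.0888), vehicle 2 or 4 or pegtarazimod 1 or 2, and that of Cyp3a13 without vehicle 3 (0.0654) or pegtarazimod 1 or 2. Cyp3a44 differed by 0.59 (adjusted p = 0.0693, and 0.0276 with a block for replicates 1 and 2 against 3 to 5), Cyp3a57 by 0.35 and Cyp3a16 by 0.17.

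Cyp4f enzymes are known for inactivating leukotrienes and for hydroxylating fatty acids at the far end. Of 9 genes 4 rose, and all 9 differences were above 0 (median 0.49). Cyp4f16 had values of 7.03, 6.68, 6.33, 6.39 and 6.79 with vehicle and of 8.92, 8.49, 7.37, 7.41 and 7.53 with pegtarazimod (2.46-fold, adjusted p = 0.0144). Cyp4f14, a leukotriene hydroxylase gene, had 9.14, 8.74, 8.39, 9.17 and 9.32 against 10.87, 10.48, 9.77, 9.61 and 9.77 (2.22-fold, adjusted p = 0.0137). In both genes the groups were separate, with pegtarazimod 1 and 2 on top.

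Cyp4f18, known as the leukotriene-oxidising P450 of neutrophils, changed by less but with little spread. Its values were 4.85, 4.91, 5.08, 4.97 and 4.83 with vehicle and 5.47, 5.46, 5.53, 5.24 and 5.52 with pegtarazimod, a rise of 0.52 ± 0.09 (SE) from a level below the array medians (adjusted p = 0.00529). Cyp4f40 rose by 1.29 ± 0.29 (adjusted p = 0.0226), and its call was lost without vehicle 3 (0.0700), vehicle 5 or pegtarazimod 2 and with an intensity trend and robust priors (0.0646). Cyp4f13 (0.49, adjusted p = 0.100) and Cyp4f37 (0.47, 0.0718) did not pass, but did with a block for replicates 1 and 2 against 3 to 5 (0.00735 and 0.0214).

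The PPAR alpha targets among the fatty acid hydroxylases did not pass. The 5 Cyp4a genes differed by -0.16 (Cyp4a29) to 0.19 (Cyp4a10), with a median of -0.07 and no unadjusted p below 0.05. Cyp4a14, Cyp4a29, Cyp4a31 and Cyp4a32 had means below the lower quartile of array values, so their values cannot be told from background. Cyp4a10 had values of 4.002, 3.92, 3.79, 3.79 and 3.77 with vehicle and of 4.004, 4.10, 4.05, 4.20 and 3.87 with pegtarazimod (adjusted p = 0.276), near the lower quartile of array values. On the same arrays Ppara itself rose by 1.15 (adjusted p = 0.00709). Cyp4b1, a lung and gut P450 in the same cluster, differed by 0.30 (adjusted p = 0.140) and Cyp4x1 by -0.13, with Cyp4a31 at -0.10.

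Of the subfamilies with a single measured gene, Cyp2u1, a fatty acid hydroxylase gene, was the one that rose, from 8.06 ± 0.40 to 9.11 ± 0.64 (2.07-fold, adjusted p = 0.0384). Its call was lost without vehicle 3 (0.109), vehicle 2, 4 or 5 or pegtarazimod 1, 2 or 3, and with an intensity trend and robust priors (0.107). Cyp2s1, a P450 of surface epithelia that responds to the aryl hydrocarbon receptor, had 10.52, 10.46, 8.82, 8.999 and 9.05 with vehicle and 11.33, 11.20, 10.45, 9.97 and 10.18 with pegtarazimod. Vehicle 1 and 2 here lay above pegtarazimod 3 to 5, so the difference of 1.06 did not pass over the 10 arrays (adjusted p = 0.115). It was 0.77 within replicates 1 and 2 (0.0115) and 1.24 within replicates 3 to 5 (1.68e-04), past the threshold in each.

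Cyp2w1, known from fetal gut and tumours, differed by 0.67 (adjusted p = 0.0973, and 0.0182 with a block for replicates 1 and 2 against 3 to 5). Cyp2e1, which oxidises ethanol, differed by -0.10, Cyp2f2, known from airway club cells, by -0.01, Cyp2g1, known from the nose, by -0.07, the vitamin D hydroxylase gene Cyp2r1 by 0.05 and Cyp2t4 by 0.05, with adjusted p of 0.796 to 0.970. Cyp2r1, Cyp2g1 and Cyp2t4 were below the lower quartile of array values. The liver-typical Cyp2a genes differed by -0.05 (Cyp2a12) to 0.36 (Cyp2a4) and none passed.

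Cyp2b10, the best-known CAR target, had 8.67, 7.99, 8.57, 9.37 and 9.37 with vehicle and 10.15, 9.72, 8.93, 9.64 and 9.44 with pegtarazimod. Pegtarazimod 3 lay below vehicle 4 and 5, and the difference of 0.78 did not pass (adjusted p = 0.104). It was 1.61 within replicates 1 and 2 (adjusted p = 0.00662) and 0.23 within replicates 3 to 5 (0.734). The other 4 Cyp2b genes differed by 0.05 to 0.20.

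Earlier analysis of these arrays set replicates 1 and 2 against replicates 3 to 5, a split that no label gives. The series lists replicates 1 and 2 of both groups before replicates 3 to 5 of both, for no stated reason. In the P450 genes the split was plain with pegtarazimod and weaker with vehicle. The mean over replicates 1 and 2 was above that over replicates 3 to 5 in 52 of 69 genes with pegtarazimod (median gap 0.25) and in 44 with vehicle (0.10). The mean of the 23 called genes was 8.18 and 8.01 in pegtarazimod 1 and 2 against 7.32 to 7.38 in pegtarazimod 3 to 5. In vehicle 1 to 5 it was 6.97, 6.63, 6.21, 6.58 and 6.63. Within replicates 1 and 2, 27 P450 genes were higher (2.93% of all genes), within replicates 3 to 5, 17 (1.84% of all genes), and none was lower in either, at a spread pooled over the 10 arrays. Of the 23 genes called over all arrays, 13 were past the threshold in each subset, 8 just in the first, Cyp2c54 just in the second and Cyp2d10 in neither. The difference was larger in replicates 1 and 2 for 18 of the 23. A test of this difference between the subsets was past an adjusted 0.05 for none of the 69 genes and for 5 of all genes. At an unadjusted p below 0.05, 15 of 69 P450 genes (21.7%) and 7.65% of all genes passed, 12 of the 15 with the larger difference in replicates 1 and 2. Cyp2c50 had the smallest of these p-values, with differences of 1.43 and 0.43 and a limma adjusted p of 0.173 for the contrast between them, while Cyp2c65 differed by 1.14 in each subset. With the subsets as a block, which takes a shared gap between them out of the spread, 30 of the 69 genes were higher (4.5% of all genes) and none lower. All 23 were among them, and the other 7 were Cyp2s1 (adjusted p = 4.81e-05), Cyp4f13 (0.00735), Cyp2c37 (0.0134), Cyp2d40 (0.0171), Cyp2w1 (0.0182), Cyp4f37 (0.0214) and Cyp3a44 (0.0276).

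**Figure D4:**
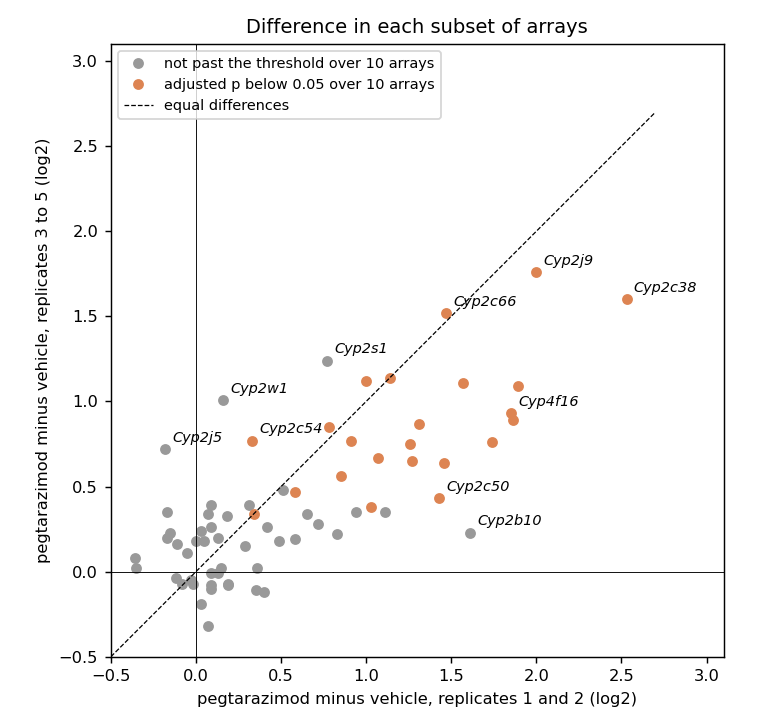
Difference (pegtarazimod minus vehicle, log2) of each P450 gene within replicates 1 and 2 (horizontal axis, 2 arrays per group) and within replicates 3 to 5 (vertical axis, 3 arrays per group), with genes called over the 10 arrays in orange. Most orange points lie below the dashed line of equal differences, Cyp2b10 lies at 1.61 and 0.23, and Cyp2s1 and Cyp2w1 lie above the line.

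Many of the genes lie in clusters. In some of these, called genes stood beside others that were not called, and other clusters held no call. The cluster from Cyp2s1 to Cyp2t4, with the Cyp2a and Cyp2b genes among its 13 P450 genes, held none in the fit without a block. Neither did that of Cyp4a, Cyp4b and Cyp4x. In the first, Cyp2a4, Cyp2a5, Cyp2a22, Cyp2b19, Cyp2g1 and Cyp2t4 had means below the lower quartile of array values. No P450 gene in that range was called. Of its genes above the median, Cyp2s1 differed by 1.06, Cyp2b10 by 0.78 and Cyp2f2 by -0.01. Cyp2s1 passed with the array subsets as a block (limma adjusted p = 4.81e-05). The Cyp2d cluster held the calls of Cyp2d10 and Cyp2d26. In the Cyp2c cluster 9 of 13 measured genes rose, among them the run of Cyp2c55, Cyp2c65 and Cyp2c66 at one end and of Cyp2c54, Cyp2c50 and Cyp2c70 at the other. The gene next to Cyp2c55 outside the cluster, Hells, a chromatin remodelling gene of dividing cells, fell by 0.65 (adjusted p = 0.0403), and Pdlim1 next to Cyp2c70 differed by -0.10 (0.659). In the Cyp2j cluster Cyp2j6 and Cyp2j9 are adjacent, and the genes flanking the cluster, Hook1 (-0.11) and Gm12695 (0.01), did not pass. In the Cyp3a cluster Cyp3a11, Cyp3a25 and Cyp3a59 are adjacent at one end. In the Cyp4f cluster the called genes Cyp4f16, Cyp4f40 and Cyp4f14 are each next to genes that were not called, and the zinc finger genes between them differed by -0.16 to 0.20.

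**Figure D5:**
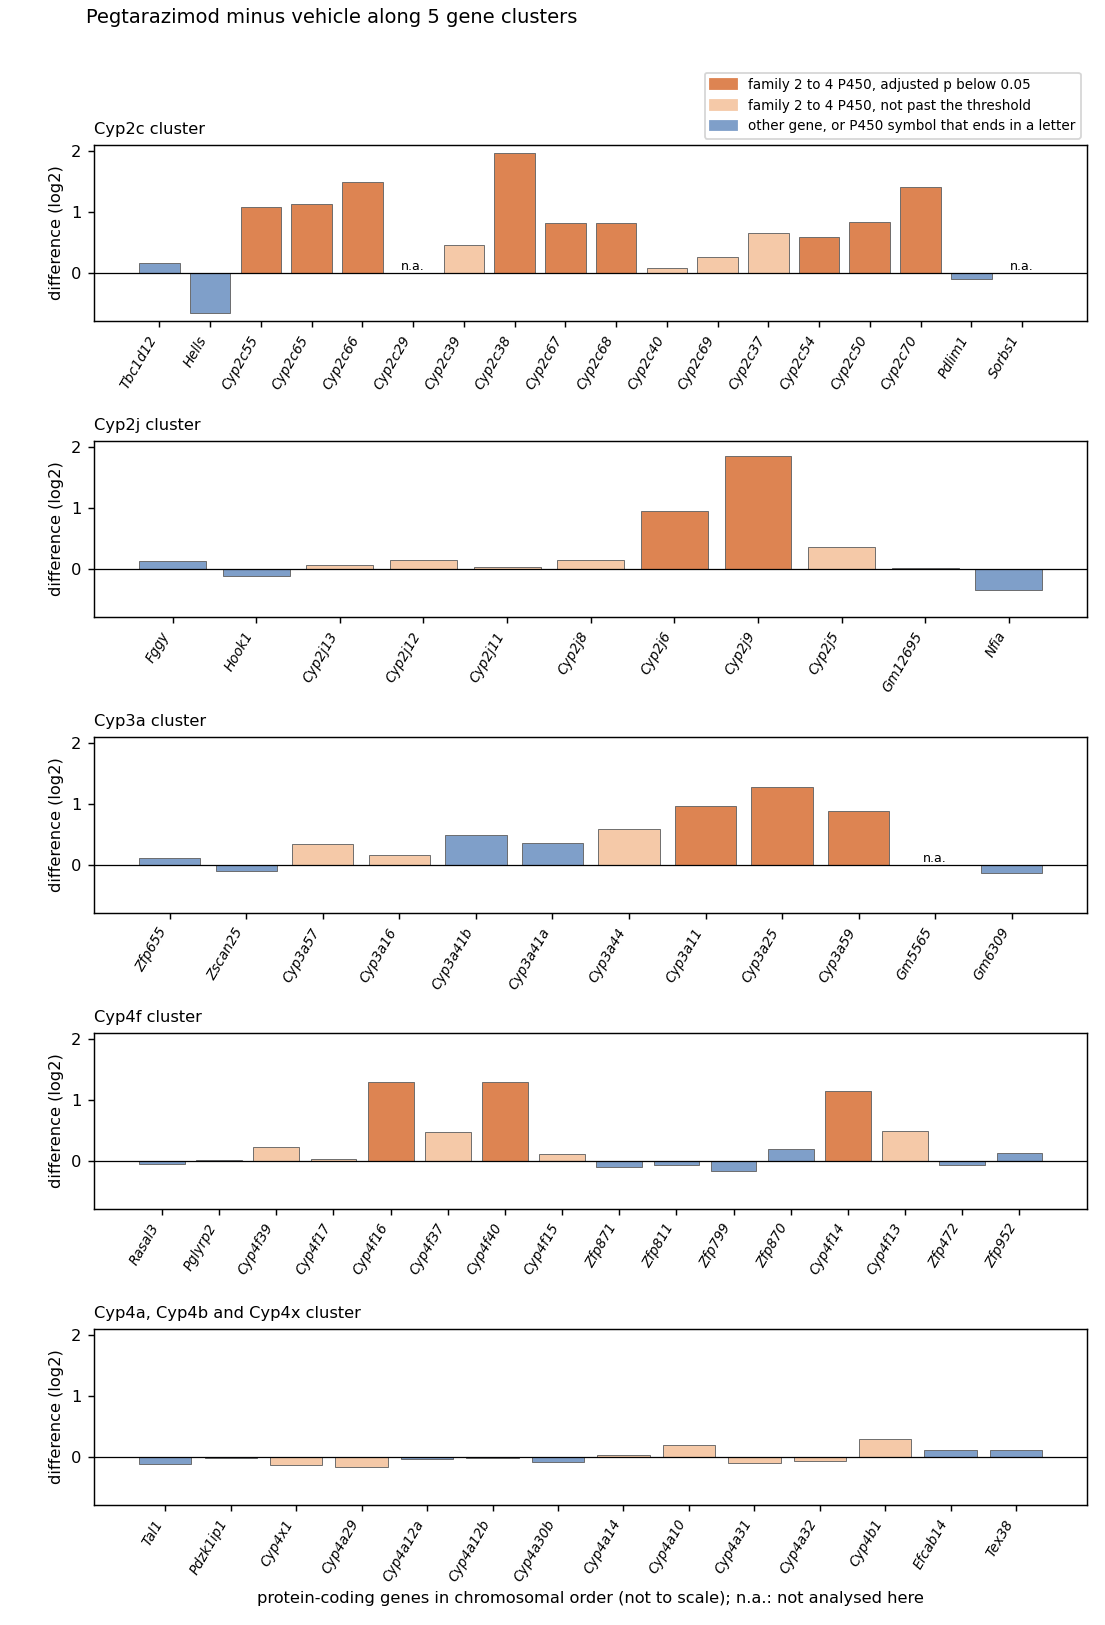
Difference (pegtarazimod minus vehicle, log2) of genes in 5 P450 gene clusters, in chromosomal order from the RefSeq gene table and not to scale, with 2 flanking genes on each side; n.a. marks genes not analysed here. Dark orange bars, the P450 genes past the threshold, stand in 4 of the clusters, and the cluster of Cyp4a, Cyp4b and Cyp4x has none. The Cyp2d cluster and the cluster that holds the Cyp2a and Cyp2b genes, which had no call, are not drawn.

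A further 21 P450 genes whose symbols have the same form, from other families apart from Cyp2ab1, had 1 call. Cyp1a1, the classical target of the aryl hydrocarbon receptor, rose by 1.23 (adjusted p = 0.0095), and the median of the 21 was -0.01. Another 9 P450 genes and pseudogenes fit neither symbol rule, among them Cyp3a41a, Cyp3a41b and Cyp4a12a, and these differed by -0.13 to 0.49 with no call. Of 8 measured genes of electron supply and haem, 3 rose: Cyb5a, which passes electrons to P450 enzymes, by 1.20 (adjusted p = 0.00446), Alas1, the first enzyme of haem synthesis, by 0.55 (0.0160) and the mitochondrial Cyb5b by 0.36 (0.0457). Hmox1, which breaks down haem, fell by 0.50 (0.0391). The calls of Cyb5b (0.119) and Hmox1 (0.111) were lost without vehicle 3 and without several other arrays. The reductase gene Por was not analysed here.

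Among 10 measured eicosanoid genes, Ephx2, which opens the epoxides made by Cyp2c and Cyp2j enzymes, rose by 1.09 (6.06 to 7.15, adjusted p = 0.0391), and the phospholipase gene Pla2g2a fell by 2.38 (0.0283). Both calls were lost when single arrays were left out, at up to 0.0992 without pegtarazimod 2 for Ephx2 and 0.0827 without vehicle 3 for Pla2g2a. With the array subsets as a block, limma gave an adjusted p of 0.00107 for Ephx2 and 2.4e-07 for Pla2g2a. Of 16 regulators 2 rose, Ppara and Nr1i3 (CAR), the latter by 1.27 (6.52 to 7.79, adjusted p = 0.0297, and 0.0842 without vehicle 3). Nr1i2 (PXR) differed by 0.48 (0.0563), Hnf4g by 0.67 (0.0724) and Hnf4a by 0.15 (0.447). These calls changed with the array subsets as a block: 10 of the 16 regulators were then higher, among them Nr1i2 (0.00366), Hnf4g (4.03e-04), Rxra (0.00181) and Nr1h4 (1.11e-05). The median of the 16 regulators was 0.37, and none fell in either fit.

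Markers of cell types moved on the same arrays. All 13 enterocyte markers had differences above 0 and 5 passed (Fabp1, Fabp2, Anpep, Slc15a1, Mttp), with a median of 1.36 within replicates 1 and 2 and of 0.31 within replicates 3 to 5 and a summed linear signal of 8646 to 12662 on vehicle and 12514 to 25105 on pegtarazimod arrays. Of 6 stem cell markers 5 fell (Lgr5, Ascl2, Axin2, Rgmb, Sox9), from sums of 4379 to 4781 down to 1566 to 2608. The goblet list had 5 of 6 higher (1235 to 1784 against 2475 to 3155) and the Paneth list 3 of 6 lower (1953 to 3861 against 1121 to 2768). Of the enteroendocrine markers 2 of 4 were higher (1725 to 2583 against 2848 to 3882), and of 4 tuft cell markers none passed (99 to 115 against 94 to 106). The part of these shifts in the P450 differences was not tested. All 6 epithelial markers lay above the median of every array. Of 7 hepatocyte markers none passed, with sums of 346 to 396 and 297 to 486, Ttr being the one above the median on every array and Tat below the lower quartile on every array. None of 5 immune, 1 of 5 mesenchymal and 0 of 4 endothelial markers exceeded the median on every array, and none of the 14 passed.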

How the data were processed

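The deposited values are log2 expression values, made by the authors with RMA in the package oligo per the submitters' processing notes. Versions of these tools: not given in the sources used here. Of 22203 probe sets, 19572 carried 1 gene symbol, 0 several and 2631 none. All 19572 identifiers matched the RefSeq table (GRCm38.p6) and no symbol changed. A gene with several probe sets (55 of 19505) was read from the one with the highest mean. The array medians were 5.60 to 5.66 and the lower quartiles 3.84 to 3.90. The number of arrays limits the precision. Differences were fitted over 19505 genes with limma 3.58.1 in R 4.3.3 (lmFit, eBayes), with Benjamini-Hochberg adjustment over all genes at 0.05. The fit was also run on data simulated with independent normal noise and no gap between array subsets. It recovered 38 of 67 log2 changes of 0.5, 67 of 67 of 1 and 66 of 66 of 2, with 12 false calls. The real arrays hold such a gap, so these counts need not apply to them. Values within replicates 1 and 2 or 3 to 5 come from a 4-group model, and the difference between these subsets from its interaction term. These subsets come from earlier analysis of the same data.

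The members, lists and motifs were chosen with earlier results of these data known. Named genes are all past the threshold, the member with the highest mean in each subfamily, and the 3 largest differences in each direction among those that did not pass. Relatives by protein identity were not used, since no protein table was used here. Other P450 genes, flanking genes and members of lists named beside these were chosen after their values were seen. Alternatives tried were normalisation, centring, filters on dim genes, the variance prior, array weights, blocks, subsets, probe set means, an exact permutation test and leaving out single arrays. Signal ranges by the vehicle mean were added after seeing the data.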

Additional observations from a re-analysis of the deposited data

Results flagged for a closer look

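Of 74 groups of 5 arrays, 2 for each of 37 named P450 genes, 3 held an array far from the other 4, and chance flags about 1 in 20 groups. Cyp2a12 was 4.83 in vehicle 4, against 3.92 to 4.11 in the other vehicle arrays, a gap of 0.793 of the range, above Dixon's 95% critical value. Cyp3a13 was 5.03 in vehicle 3, against 5.57 to 5.66 (0.870). Cyp4f18 was 5.24 in pegtarazimod 4, against 5.46 to 5.53 (0.766), and stayed above every vehicle array.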

How the results depend on the processing

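The count of P450 genes called higher was 23 over the 10 arrays. It was 22 after quantile normalisation, 23 after centring each array, 23 without the dimmest 25% of genes, 17 without the dimmest 50%, 18 with an intensity trend and robust priors, 23 with array weights and 23 with probe sets averaged. With the replicate number as a block it was 31 and with the array subsets as a block 30. The labels do not state that the numbers pair the arrays. Deviations of same-numbered arrays correlated at 0.099 to 0.310. Vehicle replicates 1, 2, 4 and 5 correlated best with the pegtarazimod array of their own number, and replicate 3 did not. Whether the arrays are paired was thus not settled. Leaving out single arrays gave 13 to 23. An exact permutation test gave 35 at an unadjusted p below 0.05. This test was not run over all genes, so no share of all genes stands beside that count. No P450 gene was called lower under any of these alternatives. The median difference moved from 0.34 to 0.65 and 0.83 without the dimmest 25% and 50%, which leave fewer P450 genes, and was 0.27 to 0.37 without single arrays. Within replicates 1 and 2 or 3 to 5 the sign changed for 19 of 69 P450 genes, none of them among the 23, and Cyp2j5 differed by -0.18 and 0.72. Of the 37 named P450 genes, these reversed. Cyp2a12 became 0.12 without vehicle 4. Cyp2e1 became 0.08 within replicates 3 to 5 and 0.03 without pegtarazimod 2. Cyp2f2 became 0.01 after quantile normalisation, 0.02 after centring, 0.09 within replicates 1 and 2, 0.00 without vehicle 3, 0.01 without vehicle 4 and 0.05 without pegtarazimod 3. Cyp2r1 became -0.17 within replicates 1 and 2, -0.01 without vehicle 3 and -0.03 without pegtarazimod 3. Cyp2t4 became -0.11 within replicates 1 and 2 and -0.07 without pegtarazimod 3. Within replicates 1 and 2 Cyp4a29 became 0.07 and Cyp4a31 0.03, and within replicates 3 to 5 Cyp4x1 became 0.02. Over the arrays left out singly, Cyp2a12 ran from -0.15 to 0.12, Cyp2e1 from -0.19 to 0.03, Cyp2f2 from -0.05 to 0.05, Cyp2r1 from -0.03 to 0.13 and Cyp2t4 from -0.07 to 0.12. The cause was not tested. Detection over background was not used here.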
